A study of Glycine max with 12 samples.

Results

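The deposited count table of soybean flower buds holds 53808 genes, of which 936 carry an ID that starts with DD_newGene in place of a Glyma gene ID. These new genes stand outside the named annotation, and the 300 with the largest sum of counts over the 12 libraries are described here. The members were chosen by level alone, that is by the summed count of a gene. That their joint share of reads was higher under high temperature (HT) was already known when the set was drawn up, so the share and the direction of the set as a whole are given as a description with no test. Their position, sequence, strand and exon structure were not given in the sources used here. The readable rows of the study's supplementary annotation, which covers genes that differed between the lines at HT, name a protein for 3 of the 300. For these 3 the word unannotated fits the gene ID only.

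The libraries came from flower buds of 2 lines at 2 temperatures, 3 libraries in each of the 4 groups. *GmMYB21a-OE2* is 1 transgenic line that overexpresses *GmMYB21a*, a MYB transcription factor gene, from the pTF101.1 vector. The promoter that drives the transgene was not given in the sources used here. TL1 is the untransformed recipient, the cultivar Tianlong No. 1, a line that restores male fertility in hybrid breeding. HT plants stood at 40 °C by day and 34 °C by night, and plants at normal temperature (NT) at 28 °C and 22 °C. The study's general growth conditions give 5 days of HT, and its account of the RNA-seq plants gives no duration. Buds came from upper, middle and lower parts of the plants, and the study counts the 3 libraries of a group as independent biological replicates. The groups follow the library titles. The treatment entry of the labels reads high temperature for all 12 libraries, against the titles of the 6 NT libraries.

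When reads are assembled into transcripts with a reference genome at hand, some fall outside every annotated gene, and the software lists such loci under new IDs. In plants they can be long non-coding RNAs, transcripts of transposable elements, protein-coding genes that the annotation missed, or pieces of the untranslated ends of known genes. A genome annotation is built from chosen tissues of a reference cultivar, so transcripts of another cultivar or of a stressed organ are more likely to lie outside it. In Arabidopsis, for example, the retrotransposon ONSEN is transcribed in heated seedlings.

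Total counts were 32058303 to 39654590 per library. A replicate pair differed by a chi-square of 2.71 to 5.09 per degree of freedom, except for the 2 pairs that hold the third HT library of *GmMYB21a-OE2* (14.8 and 11.7), so that library stood apart from its replicates. Counts of *GmMYB21a* scaled to the library size (CPM) were 10.4 to 11.8 in *GmMYB21a-OE2* at HT, 0.805 to 1.11 in TL1 at HT, 38.1 to 41.2 in *GmMYB21a-OE2* at NT and 5.28 to 6.34 in TL1 at NT, so each *GmMYB21a-OE2* library was above each TL1 library of the same temperature. All 13 anther markers read here, 9 of the tapetum and 4 of pollen, had counts in every library. They came from the study's annotation of genes that differed at HT and are not independent of that comparison. The summed level of the pollen markers was 3.70 to 4.94 CPM in *GmMYB21a-OE2* and 10.3 to 10.8 CPM in TL1 under HT, against 36.1 to 38.8 CPM and 44.6 to 50.6 CPM under NT. The summed level of the tapetum markers was 76.1 to 102 CPM in *GmMYB21a-OE2* and 23.1 to 23.8 CPM in TL1 under HT, against 90.0 to 122 CPM and 96.7 to 126 CPM at NT. All 4 pollen markers had lower means at HT in both lines, and all 9 tapetum markers had lower means in TL1 at HT than in *GmMYB21a-OE2* at HT. In whole buds, fewer cells of a type and less RNA per cell cannot be told apart, and the part of these cells in the changes below was not tested.

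The 300 members held 2041185 counts, which is 90.1% of the 2266451 counts on all new genes. The levels were very uneven. DD_newGene_860 alone had 436303 counts, or 21.4% of the counts on the set, and stood at place 26 among all 53808 genes of the table. The 10 largest members held 40.3% of the set's counts, the 50 largest 63.7% and the 100 largest 78.3%. The median member had 2858 counts over the 12 libraries. Only 3 members were among the 1000 genes with the most counts, and the member of rank 300 stood at place 31363. At the edge of the set, DD_newGene_629 and DD_newGene_212 had 1112 and 1111 counts and were inside, while DD_newGene_295 and DD_newGene_114, with 1110 counts each, were just outside. Of the pair inside, DD_newGene_629 had 58 to 131 counts in a library and DD_newGene_212 had 43 to 186. Every member had at least 14 counts in every library, and all 300 passed the filter on low counts in each comparison. None of them therefore entered a test through a single group.

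The share of all counts that fell on the 300 members was higher in each HT library than in any NT library. In *GmMYB21a-OE2* it was 0.565%, 0.594% and 0.520% at HT, against 0.377%, 0.359% and 0.364% at NT. In TL1 it was 0.559%, 0.571% and 0.595% at HT, against 0.371%, 0.369% and 0.387% at NT. The HT mean over the NT mean was 1.53 in *GmMYB21a-OE2* and 1.53 in TL1, and the values of the lines at a given temperature lay close together. New genes with any count numbered 883 to 899 of 936 in an HT library, against 857 to 869 in an NT library.

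A large piece of that share was 1 gene. DD_newGene_860 made up 24.3% to 28.2% of the counts on the set in the HT libraries, against 11.5% to 12.9% in the NT libraries. Without it, the mean share of the other members was 0.409% at HT and 0.323% at NT in *GmMYB21a-OE2*, a ratio of 1.27. In TL1 they held 0.418% at HT and 0.329% at NT, a ratio of 1.27 again. Without the 10 largest members, which include both strongly raised and strongly lowered genes, the remaining 290 held 0.339% at HT and 0.210% at NT in *GmMYB21a-OE2* (ratio 1.62) and 0.344% at HT and 0.227% at NT in TL1 (ratio 1.52).

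**Figure D1:**
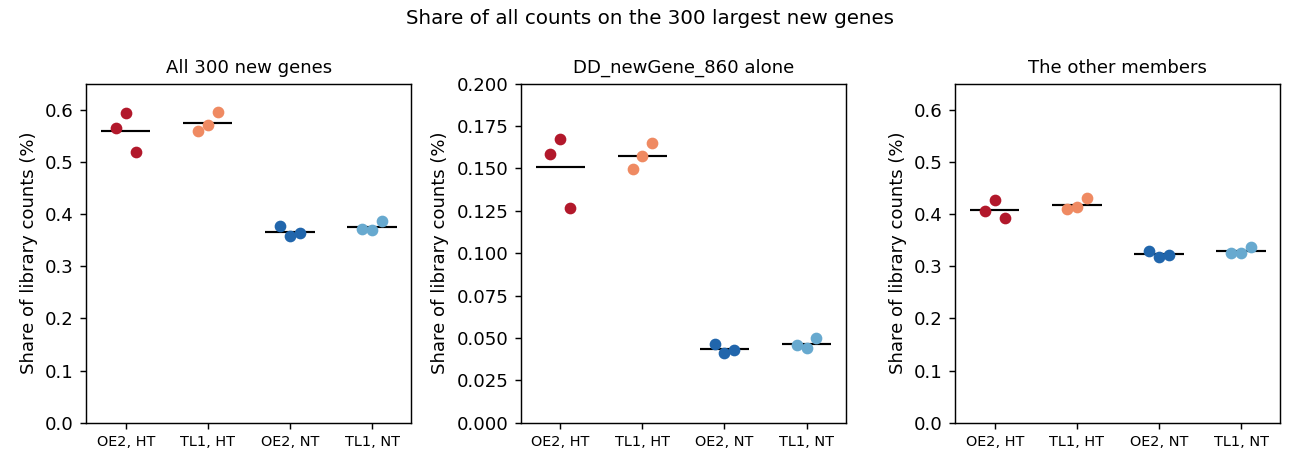
Share of all counts of a library (y axis, %) on the 300 members (left), on DD_newGene_860 alone (middle, a narrower axis) and on the other members (right). Points are single libraries, 3 in each group, and bars are group means. In each panel the 6 HT libraries lie above the 6 NT libraries, and in the left panel the HT means are 0.559% in *GmMYB21a-OE2* and 0.575% in TL1, against 0.366% and 0.376% at NT.

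Gene by gene, a heat change was called where the adjusted p of edgeR's quasi-likelihood test was below 0.05 and the absolute log2 fold change was at least 1. In *GmMYB21a-OE2*, 78 of the 300 members rose at HT and 9 fell, or 29.0% in either direction. Over all genes tested in that comparison 10.6% rose, 14.3% fell and 24.9% did either. In TL1, 83 members rose and 12 fell, or 31.7%, where 8.55% of all genes tested rose, 14.7% fell and 23.3% did either. Most of the calls were changes of less than 4-fold. Of the members that rose, 67 of 78 in *GmMYB21a-OE2* and 73 of 83 in TL1 had a log2 fold change between 1 and 2.

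The middle of the distribution lay above 0 as well. The median log2 fold change of the members was 0.66 in *GmMYB21a-OE2* (quartiles 0.23 and 1.04) and 0.61 in TL1 (quartiles 0.10 and 1.09), while the median over all genes tested was 0.01 in *GmMYB21a-OE2* and 0.0012 in TL1. The sign was positive for 248 of 300 members in *GmMYB21a-OE2* and for 239 of 300 in TL1. The 3 HT libraries were all above the 3 NT libraries for 212 members in *GmMYB21a-OE2* (70.7%, against 37.5% of all genes tested) and for 204 in TL1 (68.0%, against 36.7%). They were all below for 25 members in *GmMYB21a-OE2* (8.33%, against 33.6% of all genes tested) and for 37 in TL1 (12.3%, against 36.7%). Either held for 79.0% of the members in *GmMYB21a-OE2* and 80.3% in TL1, where it held for 71.0% and 73.4% of all genes tested. New genes with fewer counts were placed alike, since the 461 others tested in *GmMYB21a-OE2* had a median of 0.67 and the 457 others tested in TL1 had a median of 0.54.

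**Figure D2:**
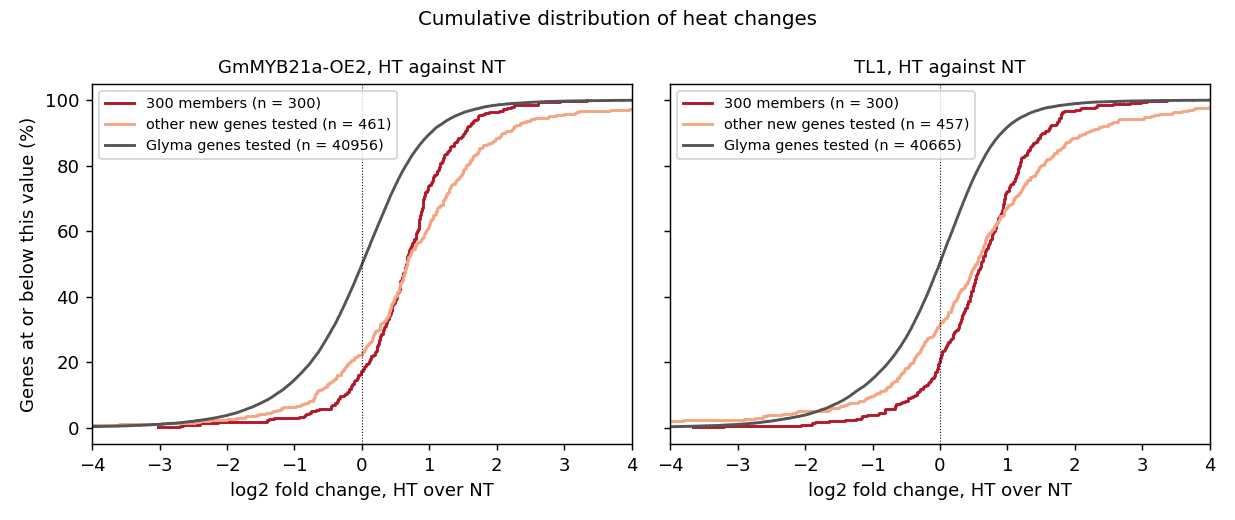
Cumulative distribution of the log2 fold change of HT over NT (x axis, shown from -4 to 4) in *GmMYB21a-OE2* (left) and TL1 (right); the y axis gives the percentage of genes at or below a value. The curve of the 300 members and that of the other new genes lie to the right of the curve of the Glyma genes, with medians of 0.66 and 0.67 in *GmMYB21a-OE2* and of 0.61 and 0.54 in TL1.

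The rises were spread over all ranks. Among the 100 members with the most counts, 17 rose in *GmMYB21a-OE2* and 28 in TL1. Ranks 101 to 200 had 32 in each line, and ranks 201 to 300 had 29 in *GmMYB21a-OE2* and 23 in TL1. Of the members that fell, 6 of the 9 in *GmMYB21a-OE2* and 6 of the 12 in TL1 were among the first 100 ranks.

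DD_newGene_860, the largest member, rose in both lines. It was at 1524, 1620 and 1255 CPM in *GmMYB21a-OE2* at HT, against 474, 433 and 449 CPM at NT. In TL1 it was at 1487, 1562 and 1619 CPM at HT, against 459, 447 and 492 CPM at NT. The lowest HT library was the one of *GmMYB21a-OE2* that stood apart from its replicates, and it was still far above the highest NT library. The log2 fold change was 1.66 ± 0.09 (SE, edgeR adjusted p = 4.061e-09) in *GmMYB21a-OE2* and 1.74 ± 0.04 (adjusted p = 7.399e-24) in TL1. What this locus encodes was not given in the sources used here.

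The next largest member went the other way. DD_newGene_869 was at 65.1, 64.5 and 97.5 CPM in *GmMYB21a-OE2* at HT, against 431, 491 and 509 CPM at NT. TL1 had 77.4, 77.5 and 70.5 CPM at HT, against 304, 309 and 333 CPM at NT. The lines overlapped at HT, while at NT each *GmMYB21a-OE2* library was above each TL1 library. Its log2 fold change with heat was -2.70 ± 0.14 in *GmMYB21a-OE2* (edgeR adjusted p = 1.76e-09) and -2.07 ± 0.05 in TL1 (adjusted p = 4.061e-24).

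DD_newGene_870, the next ID and the member of rank 5, followed it closely. It was at 27.7, 28.3 and 31.4 CPM in *GmMYB21a-OE2* at HT, against 182, 175 and 179 CPM at NT. In TL1 it was at 29.4, 32.3 and 33.4 CPM at HT, against 118 to 119 CPM in the 3 NT libraries. As with DD_newGene_869, the HT libraries of the lines overlapped and the NT libraries did not. The log2 fold change with heat was -2.66 ± 0.08 in *GmMYB21a-OE2* and -1.90 ± 0.05 in TL1 (edgeR adjusted p = 2.086e-11 and 1.552e-22). The CPM of DD_newGene_869 was 2.11 to 3.10 times that of DD_newGene_870 over the 12 libraries, and the Pearson correlation of their log2 CPM was 0.99, the highest of any members with consecutive numbers. Whether the 2 IDs are neighbouring loci or pieces of 1 transcript cannot be read from a count table.

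The remaining 2 of the 5 largest members did not reach the fold threshold. At HT, DD_newGene_676 was at 186 to 225 CPM in *GmMYB21a-OE2* and 202 to 226 CPM in TL1, and at NT the lines were at 112 to 114 CPM and 108 to 115 CPM. Its log2 fold change was 0.84 in *GmMYB21a-OE2* and 0.93 in TL1, just under 1, with no overlap between temperatures. DD_newGene_1181 was at 87.0 to 96.3 CPM in *GmMYB21a-OE2* and 93.5 to 102 CPM in TL1 under HT, against 97.3 to 108 CPM and 122 to 124 CPM under NT, with log2 fold changes of -0.19 and -0.33.

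The strongest rises were in small members. DD_newGene_1519 was at 6.16, 6.67 and 7.87 CPM in *GmMYB21a-OE2* at HT, against 0.721, 0.456 and 0.808 CPM at NT. TL1 had 4.55, 6.14 and 5.89 CPM at HT, against 1.01, 0.417 and 0.523 CPM at NT. The temperatures were well apart in both lines, and the gene holds the lowest count of any member, 14 in 1 NT library. Its log2 fold change was 3.34 ± 0.22 in *GmMYB21a-OE2* (edgeR adjusted p = 1.338e-08), the largest rise of a member there, and 3.07 ± 0.24 in TL1 (adjusted p = 2.199e-12).

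DD_newGene_92 had the largest rise of a member in TL1. It was at 7.96, 5.97 and 6.91 CPM in TL1 at HT, against 0.559, 0.715 and 0.739 CPM at NT. In *GmMYB21a-OE2* it was at 5.08, 6.16 and 4.58 CPM at HT, against 0.999, 0.484 and 1.04 CPM at NT. The log2 fold change was 3.37 ± 0.20 in TL1 (edgeR adjusted p = 5.058e-15) and 2.61 ± 0.25 in *GmMYB21a-OE2* (adjusted p = 5.959e-07).

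DD_newGene_301, DD_newGene_1614 and DD_newGene_1493 also rose in both lines. The log2 fold changes in *GmMYB21a-OE2* were 2.25 for DD_newGene_301, 2.61 for DD_newGene_1614 and 2.03 for DD_newGene_1493. In TL1 they were 2.98, 2.56 and 2.82 in the same order. All 3 were at single-digit or low 2-digit CPM at HT: DD_newGene_1493, the highest of them, was at 9.09 to 12.5 CPM in *GmMYB21a-OE2* and 14.3 to 18.5 CPM in TL1 under HT, against 2.54 to 2.86 CPM and 2.09 to 2.46 CPM at NT.

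The deepest fall shared by both lines was in DD_newGene_1653. It was at 0.756, 0.928 and 0.599 CPM in *GmMYB21a-OE2* at HT, against 6.96, 5.36 and 5.94 CPM at NT. In TL1 it was at 0.472, 0.654 and 0.833 CPM at HT, against 5.22, 5.96 and 6.87 CPM at NT. The lines overlapped at each temperature. The log2 fold change was -3.03 ± 0.21 in *GmMYB21a-OE2* (edgeR adjusted p = 2.397e-08) and -3.20 ± 0.21 in TL1 (adjusted p = 7.808e-14).

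DD_newGene_1258, a larger member of rank 17, fell as well but with more spread. It was at 13.7, 11.7 and 6.07 CPM in *GmMYB21a-OE2* at HT, against 58.3, 57.4 and 45.3 CPM at NT. TL1 had 15.1, 17.02 and 21.7 CPM at HT, against 62.1, 66.4 and 66.0 CPM at NT. The low value of 6.07 CPM was that of the HT library that stood apart. Its log2 fold change was -2.40 ± 0.21 in *GmMYB21a-OE2* (edgeR adjusted p = 2.173e-07), or -2.13 without that library, and -1.86 ± 0.08 in TL1 (adjusted p = 3.699e-18).

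The other members that fell in both lines were DD_newGene_449 and DD_newGene_1983, of ranks 8 and 9, DD_newGene_1873 and DD_newGene_2337. These 4 had log2 fold changes of -1.41, -1.40, -1.37 and -2.14 in *GmMYB21a-OE2* and of -1.25, -1.16, -1.08 and -1.41 in TL1, in that order. DD_newGene_449 was at 19.6 to 36.9 CPM in *GmMYB21a-OE2* at HT, against 65.8 to 83.1 CPM at NT, and its lowest HT value again came from the library that stood apart. The pollen markers, lower at HT in both lines (3.70 to 10.8 CPM at HT over all 6 libraries, against 36.1 to 50.6 CPM at NT), moved in the same direction as these 8 members. The tapetum markers were lower at HT in TL1 (23.1 to 23.8 CPM, against 96.7 to 126 CPM at NT). In *GmMYB21a-OE2* their sums overlapped between temperatures (76.1 to 102 CPM at HT, against 90.0 to 122 CPM at NT). The part of either list in the falls was not tested.

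**Figure D3:**
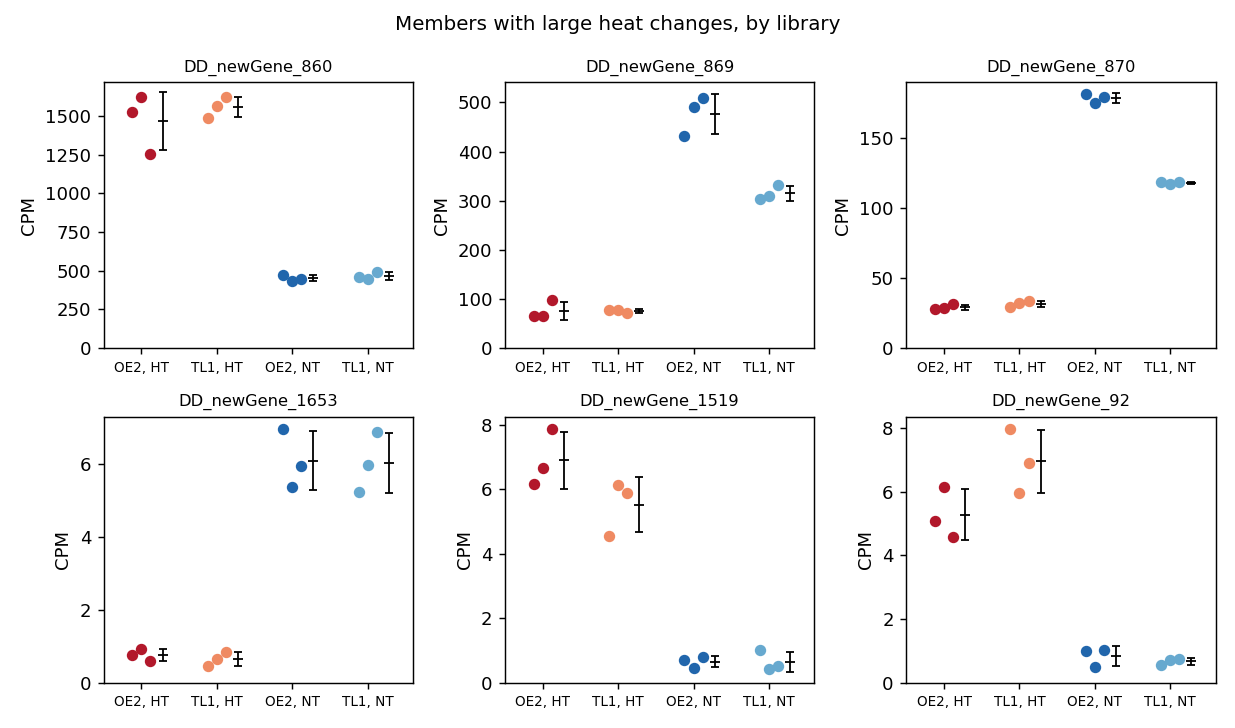
Level (y axis, CPM, each panel with its own scale from 0) of 6 members with large heat changes in the 12 libraries. Points are single libraries, and the bars beside them give the mean ± SD of 3. DD_newGene_860, DD_newGene_1519 and DD_newGene_92 lie higher at HT and DD_newGene_869, DD_newGene_870 and DD_newGene_1653 lie higher at NT, with no overlap between temperatures in either line.

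Of the 115 members called in at least 1 line, 57 rose in both, 8 fell in both and 2 were called in opposite directions. The 65 called alike were 56.5% of the 115, and over all genes tested in both lines 56.0% of those called in at least 1 line were called alike. The 2 heat comparisons share no library. Over the 300 members the Pearson correlation between their log2 fold changes was 0.79, with the same sign for 275 members (91.7%). The correlation over the 40950 genes tested in both comparisons was 0.85, with the same sign for 85.6%. These are correlations across genes, which are not independent replicates, and all points rest on the same 12 libraries.

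Of the 48 members called in 1 line alone, 20 rose in *GmMYB21a-OE2* alone, 25 rose in TL1 alone and 3 fell in TL1 alone. A call in 1 line and not in the other does not show that the lines differed. The difference was tested as the interaction of line and temperature, in a fit to all 12 libraries at an adjusted p below 0.05 with no fold threshold. The interaction was called for 21 of these 48 (43.8%), and for 30.4% of all genes called in 1 line alone.

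Over the whole set, 37 members had an interaction, or 12.3%, where 12.4% of all genes tested had one. A higher heat change in *GmMYB21a-OE2* than in TL1 was called for 16 members and a lower one for 21, against 5.5% and 6.91% of all genes tested. Leaving out the second NT library of *GmMYB21a-OE2* or the first NT library of TL1 took the lower count to 12, the smallest of any left-out library. A called interaction with an absolute log2 value of at least 1 was seen in 11 of the 300 members, and in 3.1% of all genes tested. By size, 13 of the 14 interactions in the first 100 ranks were negative, and 9 of the 10 in the last 100 ranks were positive, while the median log2 interaction was -0.06 in the first 100 and 0.07 in the last. Genes of the whole table showed a like split by level, since 70.6% of the interactions called among genes with summed counts in the range of the first 100 ranks were negative, and 74.4% of those in the range of the last 100 ranks were positive. Both DD_newGene_869 (log2 interaction -0.62 ± 0.16, edgeR adjusted p = 0.01206) and DD_newGene_870 (-0.75 ± 0.09, adjusted p = 6.949e-06) were among the negative ones, having fallen further in *GmMYB21a-OE2*. For DD_newGene_869 the interaction was -0.56 (edgeR adjusted p = 0.05037) without the first NT library of TL1 and then missed the threshold. DD_newGene_860 had none (-0.08, adjusted p = 0.6823).

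**Figure D4:**
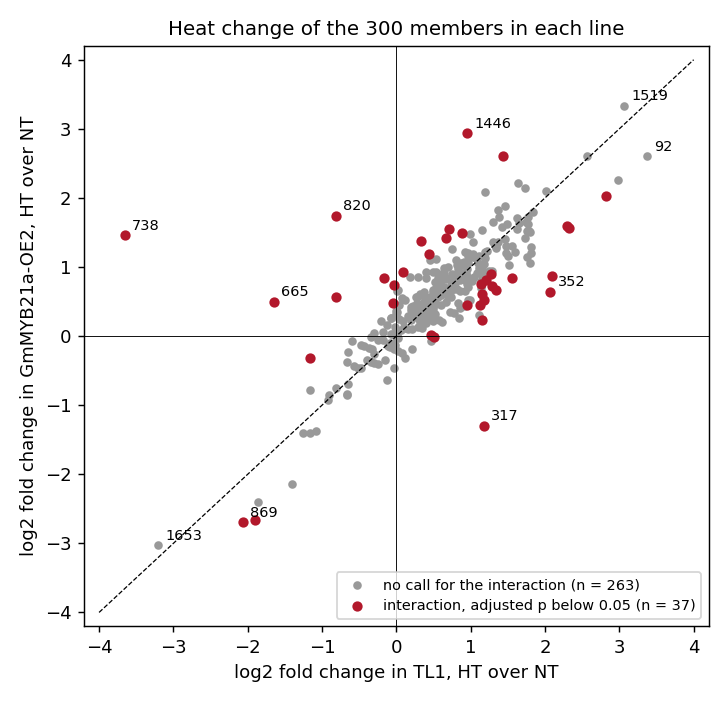
Log2 fold change of HT over NT of each of the 300 members in *GmMYB21a-OE2* (y axis) and in TL1 (x axis). Red points are the 37 members with an interaction of line and temperature at an edgeR adjusted p below 0.05, grey points the other 263, and the dashed line marks equal change; numbers are those of the gene IDs. Most points lie near the line in the upper right part, and DD_newGene_738 and DD_newGene_317 lie far from it on opposite sides.

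DD_newGene_738 had the largest interaction of the set. It was at 3.46, 4.94 and 3.65 CPM in *GmMYB21a-OE2* at HT, against 1.83, 1.11 and 1.30 CPM at NT. In TL1 it was at 0.416, 0.378 and 0.476 CPM at HT, against 4.92, 5.45 and 5.70 CPM at NT. It thus rose with heat in *GmMYB21a-OE2*, with a log2 fold change of 1.46 ± 0.23 (edgeR adjusted p = 6.597e-05), and fell in TL1, with -3.66 ± 0.22 (adjusted p = 1.022e-14), and no group overlapped its counterpart. The log2 interaction was 5.13 ± 0.31 (adjusted p = 5.185e-10). Between the lines it was higher in *GmMYB21a-OE2* at HT (log2 difference 3.25 ± 0.25, adjusted p = 1.064e-06) and lower at NT (log2 difference -1.92 ± 0.19, adjusted p = 1.384e-07).

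DD_newGene_317 was the other member with opposite calls. The study's annotation of it names reverse transcriptase, ribonuclease H, integrase, aspartyl protease and gag domains, the parts from which retrotransposons copy and insert themselves. It was at 5.70, 6.82 and 5.26 CPM in *GmMYB21a-OE2* at HT, against 14.9, 14.3 and 13.4 CPM at NT. TL1 had 35.4, 31.7 and 34.7 CPM at HT, against 15.8, 15.1 and 14.2 CPM at NT. The lines overlapped at NT and were far apart at HT. It fell with heat in *GmMYB21a-OE2* (log2 fold change -1.30 ± 0.12, edgeR adjusted p = 3.622e-07) and rose in TL1 (1.17 ± 0.07, adjusted p = 1.44e-14), with a log2 interaction of -2.47 ± 0.13 (adjusted p = 8.102e-11). At HT it was lower in *GmMYB21a-OE2* than in TL1 (log2 difference -2.51 ± 0.11, adjusted p = 1.909e-09). Retrotransposons lie in many near-identical copies, so reads counted here may come from other copies.

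Few members differed between the lines at a single temperature, though at NT their share was above that of all genes tested. At HT, 4 members were higher in *GmMYB21a-OE2* than in TL1 (1.33%) and 2 were lower (0.667%), or 2.0% in either direction. Of all genes tested, 1.94% were higher and 0.475% lower at HT (2.41% in either). At NT, 2 members were higher (0.667%) and 6 were lower (2.0%), or 2.67% in either direction. Of all genes tested, 0.24% were higher and 0.71% lower at NT (0.949% in either). The lower count at HT was 4 when the first HT library of *GmMYB21a-OE2* was left out. In all, 11 members were called at either temperature: DD_newGene_738, DD_newGene_1342 and DD_newGene_1438 at both, DD_newGene_317, DD_newGene_820 and DD_newGene_1967 at HT, and DD_newGene_352, DD_newGene_665, DD_newGene_1159, DD_newGene_1446 and DD_newGene_1722 at NT. The median log2 difference of the 300 between the lines was -0.02 at HT and -0.08 at NT, and at NT the 3 *GmMYB21a-OE2* libraries were all below the 3 TL1 libraries for 60 members (13.3% of all genes tested), and above them for 21 (14.2%). At HT they were all below for 37 members (12.3%, against 14.9% of all genes tested) and all above for 32 (10.7%, against 16.2%). Either held for 23.0% of the members at HT and 27.0% at NT, where it held for 31.1% and 27.5% of all genes tested. At HT the tapetum markers were at 76.1 to 102 CPM in *GmMYB21a-OE2* and 23.1 to 23.8 CPM in TL1. The pollen markers went the other way, at 3.70 to 4.94 CPM in *GmMYB21a-OE2* and 10.3 to 10.8 CPM in TL1. The part of either list in the differences at HT was not tested.

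DD_newGene_1342 was higher in *GmMYB21a-OE2* at both temperatures. At HT it was at 11.6, 13.3 and 10.97 CPM in *GmMYB21a-OE2*, against 3.22, 3.20 and 4.91 CPM in TL1. At NT it was at 7.21, 5.53 and 6.32 CPM in *GmMYB21a-OE2*, against 0.838, 0.566 and 1.23 CPM in TL1. The lines did not overlap at either temperature, and TL1 at HT stayed below *GmMYB21a-OE2* at NT. The log2 difference was 1.67 ± 0.16 at HT (edgeR adjusted p = 1.001e-05) and 2.85 ± 0.21 at NT (adjusted p = 1.864e-09), the largest of the set at NT.

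DD_newGene_1438 was lower in *GmMYB21a-OE2* at both temperatures. The study's annotation likens its product to DOT1, a glycine-rich protein of Arabidopsis. The HT level was 1.97, 1.74 and 1.80 CPM in *GmMYB21a-OE2*, against 5.91, 7.75 and 5.95 CPM in TL1. At NT it was at 0.721, 0.712 and 1.47 CPM in *GmMYB21a-OE2*, against 2.74, 3.31 and 2.77 CPM in TL1. The lines were apart at each temperature by a like amount, with a log2 difference of -1.83 ± 0.17 at HT (edgeR adjusted p = 7.223e-06) and -1.61 ± 0.25 at NT (adjusted p = 0.0001295). The interaction was not called (-0.27, adjusted p = 0.6459).

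DD_newGene_352 was higher in *GmMYB21a-OE2* at NT. It was at 20.2, 17.3 and 20.3 CPM in *GmMYB21a-OE2*, against 4.41, 4.53 and 4.50 CPM in TL1. At HT it was at 32.3, 32.6 and 27.95 CPM in *GmMYB21a-OE2*, against 18.4, 19.2 and 18.99 CPM in TL1. TL1 at HT was thus within the range of *GmMYB21a-OE2* at NT, and the log2 difference was 2.1 ± 0.10 at NT (edgeR adjusted p = 9.375e-13) and 0.72 at HT (adjusted p = 6.112e-05), short of the fold threshold. The heat change was smaller in *GmMYB21a-OE2*, with a log2 interaction of -1.43 ± 0.13 (adjusted p = 1.215e-07).

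DD_newGene_820 changed sides between the temperatures. The HT level was 8.62, 7.21 and 6.59 CPM in *GmMYB21a-OE2*, against 2.08, 2.37 and 1.99 CPM in TL1. At NT it was at 2.61, 1.82 and 2.08 CPM in *GmMYB21a-OE2*, against 3.49, 4.05 and 3.79 CPM in TL1. The log2 difference was 1.80 ± 0.16 at HT (edgeR adjusted p = 4.741e-06) and -0.80 at NT (adjusted p = 0.004237, under the fold threshold). The log2 interaction was 2.56 ± 0.23 (adjusted p = 2.025e-07).

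DD_newGene_1967, likened in the study's annotation to the Arabidopsis amino acid transporter AVT1J, was higher in *GmMYB21a-OE2* at HT. It was at 5.10, 5.03 and 5.96 CPM in *GmMYB21a-OE2*, against 2.14, 2.39 and 2.29 CPM in TL1. At NT it was at 3.72, 3.70 and 3.12 CPM in *GmMYB21a-OE2*, against 3.80, 3.64 and 4.56 CPM in TL1. The lines were apart at HT (log2 difference 1.24 ± 0.16, edgeR adjusted p = 0.0001471) and overlapped at NT. The log2 interaction was 1.39 ± 0.21 (adjusted p = 0.0001768).

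DD_newGene_665 stood out in TL1 at NT. It was at 1.42, 1.62 and 0.952 CPM in *GmMYB21a-OE2* at NT, against 6.70, 6.02 and 6.22 CPM in TL1 at NT. At HT it was at 1.59, 2.05 and 2.16 CPM in *GmMYB21a-OE2*, against 1.69, 2.49 and 1.85 CPM in TL1. The lines overlapped at HT, and the log2 difference was -2.25 ± 0.18 at NT (edgeR adjusted p = 6.034e-09) and -0.05 at HT (adjusted p = 0.9186). With heat it fell in TL1 (log2 fold change -1.64), and its log2 fold change in *GmMYB21a-OE2* was 0.50 (adjusted p = 0.09665).

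DD_newGene_1446, DD_newGene_1159 and DD_newGene_1722 were lower in *GmMYB21a-OE2* at NT, each by more than 1 on the log2 scale, and rose with heat in that line. DD_newGene_1446 was at 1.75, 1.05 and 1.39 CPM in *GmMYB21a-OE2* at NT, against 3.80, 3.37 and 3.70 CPM in TL1 at NT. The HT level was 11.3, 10.2 and 11.5 CPM in *GmMYB21a-OE2*, against 6.57, 8.58 and 5.83 CPM in TL1. Each *GmMYB21a-OE2* library was below each TL1 library at NT and above each at HT. The log2 fold change with heat was 2.94 ± 0.17 in *GmMYB21a-OE2* (edgeR adjusted p = 4.718e-09) and 0.95 in TL1, with a log2 interaction of 1.99 ± 0.24 (adjusted p = 7.784e-06). DD_newGene_1159 had a log2 difference of -1.20 at NT and a log2 fold change with heat of 2.61 in *GmMYB21a-OE2* and 1.44 in TL1. DD_newGene_1722 had a log2 difference of -1.47 at NT and a log2 fold change with heat of 2.21 in *GmMYB21a-OE2* and 1.64 in TL1.

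**Figure D5:**
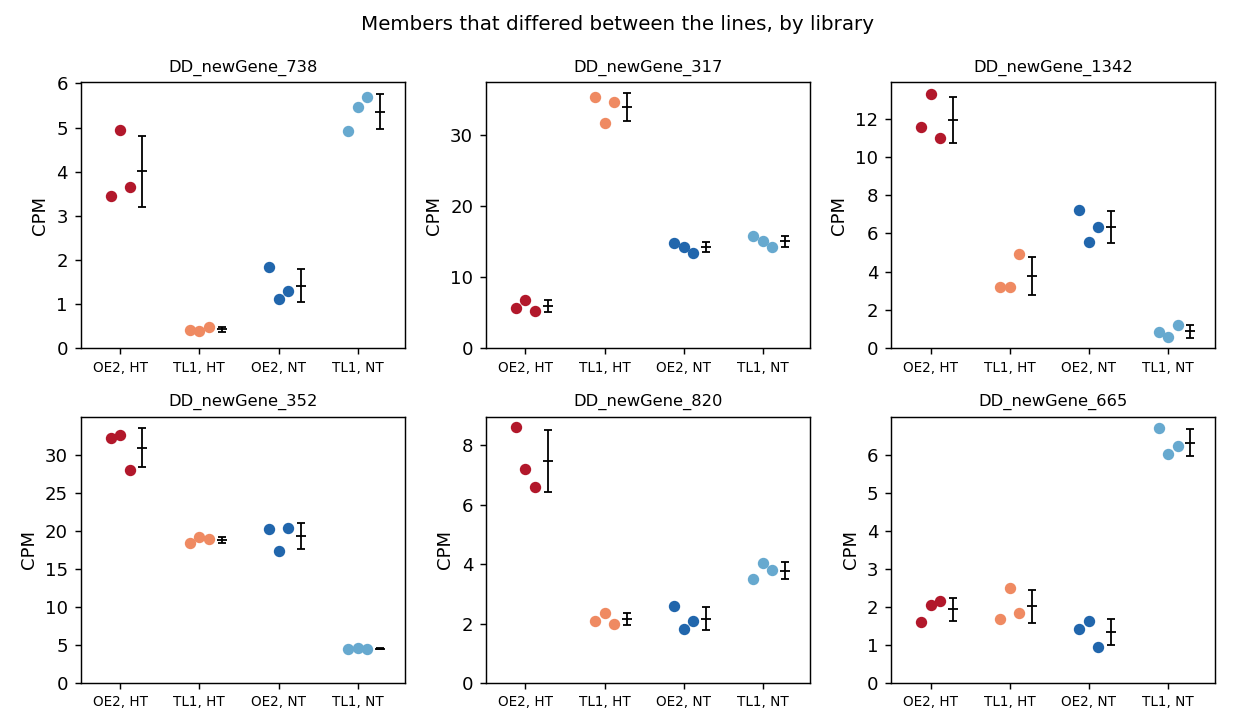
Level (y axis, CPM, each panel with its own scale from 0) of 6 members that differed between *GmMYB21a-OE2* and TL1, in the 12 libraries. Points are single libraries, and the bars beside them give the mean ± SD of 3. DD_newGene_738 and DD_newGene_317 changed with heat in opposite directions in the lines, while DD_newGene_1342 was higher in *GmMYB21a-OE2* at both temperatures, at 10.97 to 13.3 CPM against 3.20 to 4.91 CPM at HT.

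None of the 300 members was read in 1 line only. A gene was counted as such when each library of one line had at least 20 counts and each library of the other line at most 3 counts, at the same temperature. At HT, 300 members had 20 counts or more in each *GmMYB21a-OE2* library and 298 in each TL1 library, so nearly all were in reach of the rule, and 0 met it. At NT, 298 were in reach in either line, and 0 met it. Over all genes in reach, 0.00535% at HT and 0.00538% at NT were read in *GmMYB21a-OE2* and not in TL1, and 0.019% at HT and 0.0241% at NT in TL1 and not in *GmMYB21a-OE2*. The choice of members by summed counts works against such genes, which can have reads in only some of the libraries. Both temperatures together gave 0.0028% of the genes in reach for *GmMYB21a-OE2* alone and 0.00282% for TL1 alone. With at least 10 counts in one line and at most 1 in the other, the number of members was 0 as well. Both results follow from the lowest count of any member in any library, which was 14.

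None of the members was switched on or off by temperature under the same limits, which again follows from the lowest count of 14. Over all genes in reach, 0.0508% were read at HT and not at NT in *GmMYB21a-OE2* and 0.0672% at NT and not at HT, while in TL1 these shares were 0.0244% and 0.0696%. The largest heat change of a member in either line was the fall of DD_newGene_738 in TL1 (log2 fold change -3.66), and it kept 0.378 to 0.476 CPM in the HT libraries.

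New-gene numbers ran from 1 to 2544, and 36 pairs of members, made of 69 members, had consecutive numbers. Whether consecutive numbers are neighbours in the genome was not given in the sources used here. The Pearson correlation of log2 CPM over the 12 libraries had a median of 0.82 in these pairs, and 11 of 36 (30.6%) were above 0.9. Among all 44850 pairs of members the median was 0.57, and 13.5% were above 0.9. All pairs share the same 12 libraries and the same split of temperatures. In TL1, 9 of the 36 pairs had both members called with heat, 8 of them in the same direction, and in *GmMYB21a-OE2* 8 pairs did, 6 of them in the same direction. Pairs called in the same direction were thus 22.2% of the consecutive pairs in TL1 and 16.7% in *GmMYB21a-OE2*, and among all pairs of members they were 7.73% in TL1 and 6.78% in *GmMYB21a-OE2*.

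The pair that ran most against each other was DD_newGene_1873 and DD_newGene_1874, with a correlation of -0.86. DD_newGene_1873 was at 4.75, 4.35 and 3.36 CPM in *GmMYB21a-OE2* at HT, against 11.5, 10.4 and 9.58 CPM at NT. DD_newGene_1874 was at 8.40, 7.70 and 8.26 CPM in *GmMYB21a-OE2* at HT, against 3.02, 3.13 and 2.94 CPM at NT. One was low where the other was high, with log2 fold changes of -1.37 for DD_newGene_1873 and 1.38 for DD_newGene_1874 in that line. In TL1, DD_newGene_1873 fell with heat too (-1.08), while the log2 fold change of DD_newGene_1874 was 0.33 (edgeR adjusted p = 0.0661). The interaction was called for DD_newGene_1874 (1.05 ± 0.20, adjusted p = 0.001571). Strand was not stated for these counts, so reads of overlapping or antisense loci cannot be told apart.

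Replicates of a group were close for most members. The coefficient of variation of CPM over 3 libraries had a median of 12.2% in *GmMYB21a-OE2* at HT, 8.61% in TL1 at HT, 10.1% in *GmMYB21a-OE2* at NT and 9.63% in TL1 at NT. For the 32129 Glyma genes with at least 1 CPM in every library, the medians were 8.93%, 6.59%, 6.71% and 5.85% in the same order of groups. In both sets of genes the spread was widest in *GmMYB21a-OE2* at HT, the group with the library that stood apart. Without that library 86 members rose and 10 fell in *GmMYB21a-OE2*, and 77 of those that rose and 9 of those that fell were also called with it.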

How the data were processed

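For the 12 libraries of soybean flower buds the authors deposited raw integer counts in a single table with 1 row per gene. The submitters' processing notes name StringTie 2.1.3b with no role. The aligner, the genome build and the use of strand are not given in the sources used here. Members, lists, thresholds and alternatives were chosen with earlier results of these data known.

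R 4.3.3 and edgeR 4.0.16 were used to scale these counts to CPM after TMM normalization. The quasi-likelihood test of edgeR was run over all genes that passed filterByExpr, on the 6 libraries of a comparison, with Benjamini-Hochberg adjustment over all genes tested. Calls needed an adjusted p below 0.05 and a change of 2-fold or more, that is 1 or more on the log2 scale. The interaction was fitted to all 12 libraries without the fold threshold. Errors of fold changes are standard errors of the fit. The fit was tested on simulated data. Python 3.11.15 with pandas 2.3.3 and matplotlib 3.10.9 served for tables and plots.

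Members named in the text are the 5 with the largest sums, the 5 largest changes in each direction in each heat comparison, the 3 largest in each direction in each line comparison and in the interaction (called members whose libraries did not overlap), the 3 with an annotation and those at the edge of the set. DD_newGene_449, DD_newGene_1983, DD_newGene_1722, DD_newGene_1873, DD_newGene_1874 and the new genes outside the set were named after their values were seen. Alternatives were RLE size factors, DESeq2 1.42.0, no filter, the replicate number as a block, no fold threshold, 1 fit to all libraries, each library left out, and members chosen by CPM.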

Additional observations from a re-analysis of the deposited data

Results flagged for a closer look

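In 13 of the named members the heat change differed between the lines by the interaction test of edgeR at an adjusted p below 0.05. Some of them were named for the size of their interaction or line difference, so this count does not describe the set. Over all 300 members an interaction was called for 12.3%, against 12.4% of all genes tested. Values are log2 fold changes of HT over NT in *GmMYB21a-OE2* minus those in TL1. The change was higher in *GmMYB21a-OE2* for DD_newGene_738 (5.13), DD_newGene_820 (2.56), DD_newGene_665 (2.15), DD_newGene_1446 (1.99), DD_newGene_1967 (1.39), DD_newGene_1159 (1.18) and DD_newGene_1874 (1.05). It was lower in *GmMYB21a-OE2* for DD_newGene_317 (-2.47), DD_newGene_352 (-1.43), DD_newGene_1342 (-1.22), DD_newGene_1493 (-0.78), DD_newGene_870 (-0.75) and DD_newGene_869 (-0.62). For DD_newGene_738 and DD_newGene_317 the lines changed in opposite directions past the fold threshold, and for DD_newGene_869 and DD_newGene_870 the fall was deeper in *GmMYB21a-OE2*.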

How the results depend on the processing

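The alternatives were run for the counts, the shares, every called change of a named member and the heat changes of the 5 largest members, and no direction reversed in these. The fold threshold and the choice of members by CPM were varied for the counts only. At a size of 1 or more on the log2 scale, the interactions of DD_newGene_869 (-0.62), DD_newGene_870 (-0.75) and DD_newGene_1493 (-0.78) would not be called. With no fold threshold, the heat changes of DD_newGene_676 and DD_newGene_1181 would be called in both lines. The values of single members that follow are for the other alternatives. Of the values of single members, 886 kept their call or lack of one, and 4 lost it, all of them interactions with an NT library left out: -0.56 (edgeR adjusted p = 0.05037) for DD_newGene_869 without the first of TL1, and for DD_newGene_1493 -0.77 without the second of *GmMYB21a-OE2* (0.05147), -0.72 without the first of TL1 (0.06958) and -0.74 without the second of TL1 (0.05188). Of the counts and shares, 148 alternative values stayed within 1.5 times the count, or within 1 SD for a share, and 20 did not. With no fold threshold the members that rose with heat numbered 206 in *GmMYB21a-OE2* and 206 in TL1, those that fell 25 and 36, those higher in *GmMYB21a-OE2* than in TL1 18 at HT and 8 at NT, and those lower 17 and 22, and 8 interactions were higher and 3 lower when a size of 1 or more on the log2 scale was asked for. Over all new genes in place of the 300, 7 were read in 1 line only at HT, 7 at NT and 2 at both, and 8 at 1 temperature only in *GmMYB21a-OE2* and 8 in TL1. Without DD_newGene_860, an alternative chosen after seeing the data, the log2 ratio of the shares was 0.34 in *GmMYB21a-OE2* and 0.34 in TL1, against 0.61 in each with it. With single libraries left out, 71 to 87 members rose and 9 to 10 fell in *GmMYB21a-OE2*, 84 to 87 rose and 12 to 14 fell in TL1, 4 to 5 were higher and 2 to 4 lower at HT between the lines, 2 were higher and 6 to 7 lower at NT, 11 to 23 interactions were higher and 12 to 23 lower, and the log2 ratio of the shares was 0.57 to 0.66 in *GmMYB21a-OE2* and 0.59 to 0.63 in TL1. The deviations of libraries of the same number from their group means correlated at -0.22 to 0.17. They were above 0.1 in 2 of 12 pairs, both in the heat comparison of *GmMYB21a-OE2*. With 3 libraries in a group this check cannot show whether libraries of the same number shared plants or handling. With the replicate number as a block, 77 members rose and 9 fell in *GmMYB21a-OE2*, 83 rose and 12 fell in TL1, and 14 interactions were higher and 17 lower. CPM are relative to the counts of a library, so a change in total RNA per bud would not show. The lowest count of a member in a library was 14, and each group had 3 libraries.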

Other observations

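New genes below the limit of the set include a few with reads in 1 line only. DD_newGene_2202 had 53, 55 and 53 counts at HT and 47, 43 and 42 at NT in *GmMYB21a-OE2*, and 0 in all 6 TL1 libraries. DD_newGene_2012 ran the other way, with 0 counts in the 3 HT libraries and 0, 0 and 2 in the 3 NT libraries of *GmMYB21a-OE2*, against 178, 161 and 171 counts at HT and 115, 109 and 111 at NT in TL1. These were the only 2 genes of the whole table that met the rule for 1 line at both temperatures, and both are new genes. Of the 7 genes read in TL1 and not in *GmMYB21a-OE2* at HT, 6 were new genes, and of the 9 at NT, 6 were. In the other direction 1 of 2 was a new gene at HT and 1 of 2 at NT. The 6 new genes read in TL1 only at NT include DD_newGene_1026 and DD_newGene_1951, whose counts are identical. They also include DD_newGene_1646, with a like profile (102, 97 and 87 counts in TL1 at NT, against 3, 1 and 1 in *GmMYB21a-OE2* at NT). The 6 at HT include DD_newGene_2426 and DD_newGene_2427, which have consecutive numbers. Whether such IDs share reads was not tested, so these counts need not be counts of separate loci. Of the genes read at HT and not at NT, 7 of 19 in *GmMYB21a-OE2* and 6 of 9 in TL1 were new genes, and of those read at NT and not at HT, 1 of 25 in *GmMYB21a-OE2* and 2 of 26 in TL1 were. New genes are 936 of the 53808 genes in the table. How many of them were in reach of the rule is not given here, so their share among eligible genes is not known.

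DD_newGene_384 had counts in TL1 at NT, with 101, 89 and 75, against 0, 2 and 0 in *GmMYB21a-OE2* at NT and 0 in all 6 HT libraries. DD_newGene_2426 had 228, 259 and 251 counts in TL1 at HT, against 0, 2 and 0 in TL1 at NT. In *GmMYB21a-OE2* it had 0, 1 and 0 counts at HT and 5, 2 and 0 at NT. DD_newGene_1026 and DD_newGene_1951 had the same count in each of the 12 libraries, among them 70, 95 and 83 in TL1 at NT, against 3, 1 and 1 in *GmMYB21a-OE2* at NT. They were the only genes with a summed count over 200 whose 12 counts equalled those of another gene.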
